A study of Bos taurus with 252 samples.

Results

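The integrated stress response genes described here are ATF4, ATF5, DDIT3, TRIB3, CHAC1, ASNS, SESN2, PSAT1, PHGDH and SHMT2, listed by name and not by any measured value. They are 10 of the 33282 genes in the count table, and all 10 passed the filter on low counts that left 19056 genes for testing. They were followed in whole blood of 42 crossbred steers in 7 groups of 6, bled on day 0, on days 3 and 7, and on days 14, 21 and 56, with 1 mRNA library for each steer and day. Steers of the negative control group (NC) received no antimicrobial at arrival, and the other groups received a single dose of florfenicol (FLOR), tulathromycin (TULA), tildipirosin (TILD) or oxytetracycline (OXYT), which bind ribosomes, or of ceftiofur (CEFT) or enrofloxacin (ENRO), which do not. The day 0 sample was drawn before administration. All steers, NC included, had been given tildipirosin, a trenbolone acetate and estradiol implant, an antiparasitic drug and vaccines before they came to the feedlot. Every group was kept in 1 pen, so pen and treatment cannot be told apart, and the age of the steers was not given in the sources used here.

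The integrated stress response is a switch in protein synthesis that cells throw when amino acids run short, when the endoplasmic reticulum or the mitochondria falter, or when viral RNA or heme shortage is sensed. Kinases then phosphorylate the initiation factor eIF2, most translation slows, and the mRNA of the transcription factor ATF4 is translated more. ATF4 in turn switches on genes for amino acid supply and for adjustment to stress. In mammalian cells a block of mitochondrial translation is known to raise these genes. Florfenicol, tulathromycin and tildipirosin bind the large subunit of the bacterial ribosome and oxytetracycline binds the small one, and mitochondrial ribosomes descend from bacterial ones. Ceftiofur, a cephalosporin, acts on the bacterial cell wall and enrofloxacin, a fluoroquinolone, on bacterial topoisomerases. The comparison of the 4 ribosome-binding drugs with CEFT and ENRO therefore asks whether these genes differ with the kind of target. ATF4 itself is controlled largely at translation, which mRNA counts do not measure.

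Library totals had a median of 43.6 M counts and lay between 26.1 M and 74.1 M. A sequencing lane held whole steers and mostly whole groups. Lane 1 carried NC, ENRO and 2 FLOR steers, lane 2 carried TULA with the other 4 FLOR steers and 4 of TILD, and lane 3 carried CEFT, OXYT and the last 2 of TILD. No steer given CEFT, OXYT, TILD or TULA shared a lane with NC, so that lane and drug cannot be told apart there. The samples carried markers of whole blood, with hemoglobin at 0.0040% to 25.5% of counts and every tested marker of neutrophils, T cells, B cells and monocytes detected.

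Levels are given as CPM, read counts scaled by library total and TMM factor, and as they are not divided by transcript length they are compared between samples and not between genes. Over all libraries ATF4, the central transcription factor, had a median of 337 CPM and reached 634 CPM. ATF5, a related factor also controlled at translation, lay between 3.6 and 8.96 CPM. DDIT3, which encodes the pro-apoptotic factor CHOP, lay between 16.7 and 43.7 CPM. None of the 3 had a library at 2 times or more of the same steer's own median.

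Among the effectors, TRIB3, a pseudokinase that restrains ATF4 and AKT signaling, lay between 21 and 95.2 CPM. SESN2, which restrains mTORC1 when leucine is short, lay between 11.2 and 120 CPM around a median of 18.2. CHAC1, a glutathione-degrading enzyme, was near the limit of detection, with a median of 11 counts, at most 0.787 CPM, and no count in 13 libraries. A count of 0 allows up to 3 counts, or 0.0643 to 0.116 CPM in those libraries, as far as counting error goes.

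The enzymes had wide ranges between steers. ASNS, asparagine synthetase, lay between 9.67 and 81.4 CPM with a median of 15.6. PHGDH, which opens serine synthesis, lay between 209 and 887 CPM and PSAT1, which follows it, between 15.7 and 60.3 CPM. SHMT2, which moves the carbon of serine into folate metabolism in mitochondria, lay between 49.9 and 142 CPM.

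**Figure D1:**
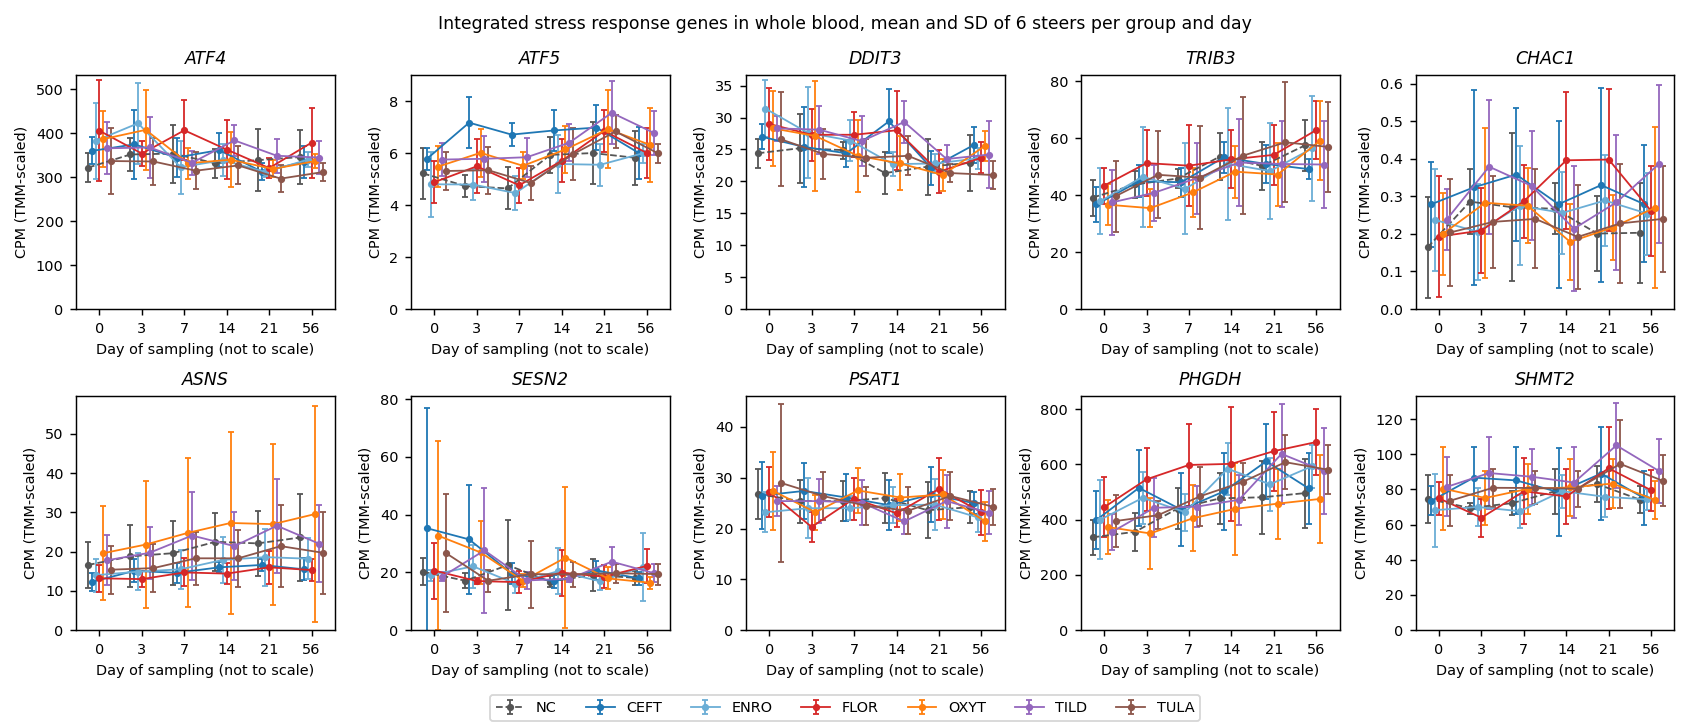
Level of each of the 10 genes in CPM (vertical axis, from 0) by day of sampling (horizontal axis), with 1 line per group, points at the mean of 6 steers and bars for the SD, cut off at 0 where they reach below it. The 7 groups overlap for most genes and days, PHGDH and TRIB3 climb in all groups from day 0 to day 56, and ATF5 in CEFT stands above NC on day 3 with 7.17 against 4.73 CPM.

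No difference between the ribosome-binding drugs and CEFT with ENRO passed the test in any of the 10 genes on any day. In the fit of all 42 libraries of a day, 0 of 60 member tests passed an FDR of 0.1, against a background of 0.0778% of all gene tests in this comparison. The smallest adjusted p was 0.476, and 2 of 60 tests, or 3.33%, had an unadjusted p below 0.05, against 6.95% of all gene tests. DESeq2 and edgeR's likelihood ratio test also called 0 of 60, with 2 and 1 unadjusted p below 0.05. ATF5 depended on which comparison drug was kept. Without ENRO it was lower in the ribosome-binding group on day 3 by 0.34 (adjusted p = 0.0462), and without CEFT it was 0.24 higher on that day (adjusted p = 0.552) and 0.33 higher on day 21 (adjusted p = 0.08).

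ATF4 was at 255 to 634 CPM with a median of 353 in the 24 steers of the ribosome-binding group on day 0, and at 267 to 494 with a median of 359 in the 12 steers of CEFT and ENRO. On day 3 these values were 266, 344 and 551 CPM against 307, 359 and 580 CPM for the lowest, median and highest steer. The ranges overlapped almost fully on both days. The difference on day 3, ribosome-binding minus CEFT and ENRO, was -0.12 on the log2 scale with a 95% interval from -0.30 to 0.057, and later differences lay between 0.014 and 0.053.

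DDIT3 differed least, with log2 differences between -0.065 and 0.013 over the 6 days and bounds from -0.22 to 0.23. On day 3 it lay between 20 and 43.7 CPM in the ribosome-binding group, with a median of 26.4, and between 20.8 and 40.5 with a median of 24.9 in CEFT and ENRO. ATF5 had 1 of its 6 unadjusted p below 0.05, on day 21, where the difference was 0.17 (95% interval 0.0057 to 0.34, adjusted p = 0.802). On that day the ribosome-binding group lay between 5.16 and 8.96 CPM and CEFT and ENRO between 4.32 and 8.6 CPM.

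ASNS was higher on average in the ribosome-binding group on all 6 days, day 0 included, without passing the test on any. Its log2 difference was 0.31 before administration (95% interval -0.042 to 0.66) and between 0.21 and 0.42 afterwards, with the lowest unadjusted p, 0.041, on day 7. On day 7 the group lay between 10.5 and 62 CPM with a median of 16, and CEFT and ENRO between 12 and 25.5 with a median of 14. The medians were close and the upper ends apart, which single steers set, as described further on.

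TRIB3 differed by -0.075 to 0.12 and SHMT2 by -0.019 to 0.18. PHGDH differed by -0.19 on day 3 (95% interval -0.43 to 0.041) and by 0.16 on day 7. PSAT1 differed by -0.11 to 0.14 over the days. The intervals were widest for CHAC1, with bounds from -0.88 to 0.69. Those of SESN2 had bounds from -0.66 to 0.51. For SESN2 and CHAC1, differences within those bounds could not be told from 0 with these steers. ASNS had bounds from -0.17 to 0.82, and its intervals were wider than those of SESN2 on days 7, 14, 21 and 56.

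The comparison of changes from day 0 within steers takes away what the groups differed in before administration. Here 0 of 50 member tests passed an FDR of 0.05, against a background of 0.00525% of all gene tests. An unadjusted p below 0.05 was seen in 5, or 10%, against 5.85% of all gene tests. The smallest adjusted p was 0.697. limma voom with the same steer block also called 0 of 50, with 4 unadjusted p below 0.05, and the fit without the block called 0 with 0 such p. For ASNS, the higher level seen on day 0 was taken out and the differences of changes had estimates between -0.12 and 0.07 and bounds from -0.28 to 0.23.

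The 5 tests with an unadjusted p below 0.05 all had a lower change in the ribosome-binding group, and 4 of them fell on day 3. On day 3 the difference of changes was -0.22 for PSAT1 (95% interval -0.40 to -0.038), -0.20 for PHGDH (-0.38 to -0.015), -0.16 for SHMT2 (-0.31 to -0.0051) and -0.14 for TRIB3 (-0.27 to -0.0036). The fifth was PSAT1 on day 14 with -0.19. Their adjusted p lay between 0.697 and 0.77, so none passed. Over all genes tested the median difference of changes on day 3 was 0.0036. In level, the difference on day 0 and then day 3 was 0.14 and -0.11 for PSAT1 and 0.13 and -0.019 for SHMT2. It was -0.030 and -0.19 for PHGDH and 0.073 and -0.075 for TRIB3. The day 0 level of PSAT1 included 1 library far above the others, Tula8 with 60.3 CPM.

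ATF4, ATF5 and DDIT3 had differences of changes between -0.13 and 0.15, and every bound lay between -0.31 and 0.33. Larger differences in these 3 mRNAs lie outside the intervals. Within lane 3, where 8 steers given OXYT or TILD stood beside 6 given CEFT, the difference of changes on day 3 was 0.0064 for ATF4, -0.17 for ASNS, -0.20 for PSAT1 and -0.35 for PHGDH. Within lane 1 only 2 FLOR steers stood beside 6 ENRO steers, and there the values were -0.57, -0.12, -0.20 and -0.17. The 2 FLOR steers differed in ATF4, as Flor3 went from 634 CPM on day 0 to 338 on day 3 and Flor4 from 321 to 336.

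**Figure D2:**
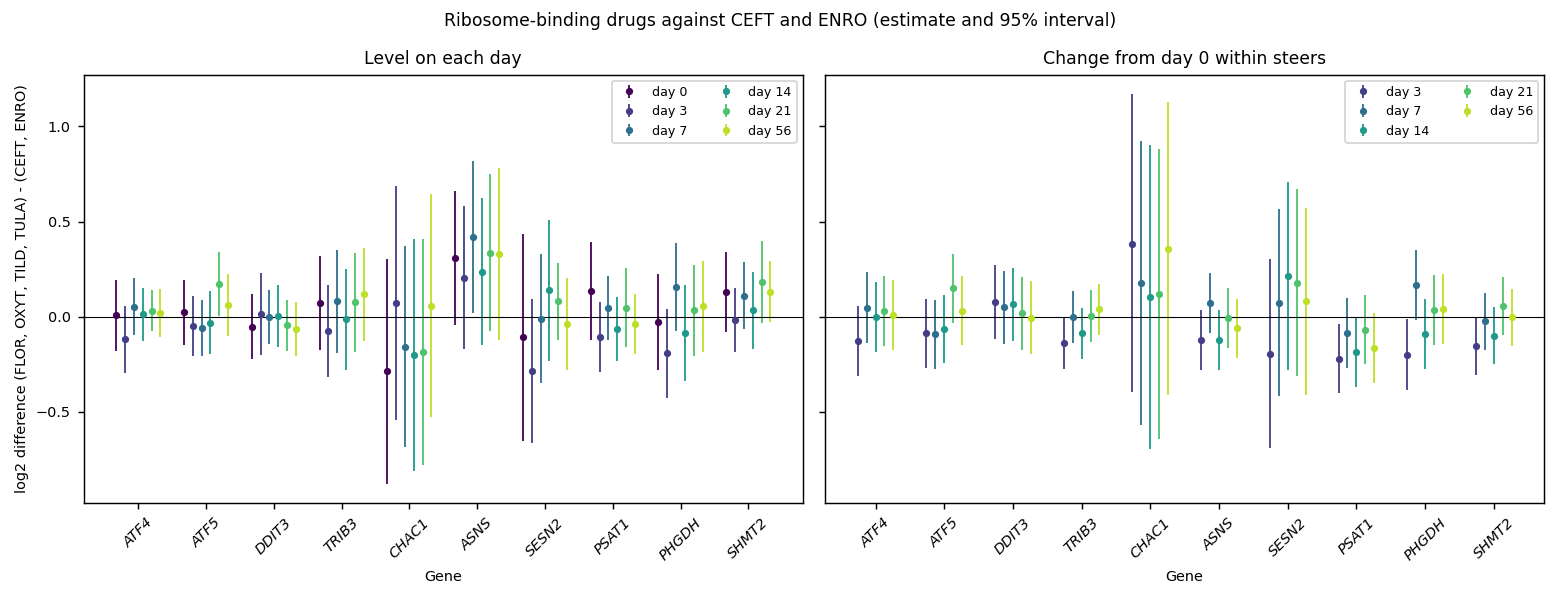
Difference between the ribosome-binding drugs (FLOR, OXYT, TILD, TULA) and CEFT with ENRO on the log2 scale (vertical axis) for each gene (horizontal axis) and day (colour), as points with 95% intervals, for levels at left and for changes from day 0 at right. Nearly all intervals include 0, and ASNS lies above 0 on all days including day 0 at left and around 0 at right. CHAC1 has the widest intervals, and those of SESN2 in both panels and of ASNS at left are wide as well.

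Against NC, each treatment was tested on each day with 6 steers a group. Of 360 member tests 2 passed an FDR of 0.1, ATF5 in CEFT on day 3 and PHGDH in FLOR on day 3, against a background of 0.694% of all gene tests. In simulated data this test gave more false calls than an FDR of 0.1 allows and missed most changes, so both the calls and the missing calls are to be read with that limit. Of the member tests 9.72% had an unadjusted p below 0.05, against 10.2% of all gene tests. DESeq2 called 12 of the 360, all higher than NC, beside 20215 of the 686016 gene tests, against 4758 in the main test. On day 3 these were ATF5 in CEFT and OXYT, PHGDH in CEFT, ENRO and FLOR, SESN2 in CEFT and OXYT, and SHMT2 in CEFT and TILD. The others were ATF5 in CEFT on day 7 and DDIT3 in CEFT and TILD on day 14. With lane in the fit 0 members were called, beside 758 of all gene tests, with 16 unadjusted member p below 0.05. ATF4, the hub of the response, passed in none of its 36 tests, and its estimates were above 0 in 18 and below 0 in 18.

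ATF5 in CEFT on day 3 lay between 5.56 and 8.22 CPM with a median of 7.18, and in NC between 4.37 and 5.49 with a median of 4.67. In this contrast 10.9% of all genes were called. The log2 difference was 0.59 with an SE of 0.13 (95% interval 0.31 to 0.88, adjusted p = 0.0532). On day 7 the groups again did not overlap, with 6.25 to 7.37 CPM in CEFT and 3.65 to 5.56 in NC, and the difference of 0.52 did not pass (adjusted p = 0.277).

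Before administration the ATF5 difference was 0.15 (95% interval -0.16 to 0.46), and by day 56 it was 0.045. The change from day 0 to day 3 exceeded that of NC by 0.44 (95% interval 0.15 to 0.73, adjusted p = 0.104), which missed the threshold of 0.05. NC fell from a mean of 5.22 to 4.73 CPM over these days while CEFT went from 5.77 to 7.17. On day 3 the mean log2 level of interferon-stimulated genes, a list added after the data were seen, was 1.06 higher in CEFT than in NC, with summed levels of 964 to 7670 CPM against 767 to 1680. In the other groups it exceeded NC by 1.62 in OXYT, 1.29 in ENRO, 0.72 in TILD, 0.26 in FLOR and 0.25 in TULA. Mean ATF5 on day 3 was 6.01 CPM in OXYT and 4.79 CPM in ENRO. Over all libraries ATF5 had a Pearson r of -0.082 with that list, and within steers it was 0.132. Of the 8 tested genes of the list 3 were called in the contrast of CEFT with NC on day 3. The part of these genes in the result was not tested.

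Leaving out 1 steer at a time, the call of ATF5 was lost in 4 cases, each a steer of NC. Without NC12, NC13, NC15 or NC7 the adjusted p lay between 0.106 and 0.121, above the threshold. CEFT and NC shared no lane. With lane as a term in the fit of all 42 libraries the difference was 0.47 (adjusted p = 0.617), and after ComBat_seq adjustment by lane it was 0.36 (adjusted p = 0.343), so the call was lost in both. On day 3 the ATF5 difference from NC was 0.34 in OXYT and 0.29 in TILD, neither past the threshold (adjusted p = 0.206 and 0.262). In the 2 macrolide groups, whose labelled doses differ, ATF5 on day 3 lay between 4.98 and 7.11 CPM in TILD and between 4.31 and 6.53 in TULA.

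PHGDH in FLOR on day 3 lay between 403 and 697 CPM with a median of 532, and in NC between 226 and 410 with a median of 375. The ranges met only at their ends. The log2 difference was 0.61 with an SE of 0.16 (95% interval 0.25 to 0.96, adjusted p = 0.0999), in a contrast in which 2.67% of all genes were called. FLOR was higher than NC in this gene by 0.41 already on day 0, before the drug was given, and by 0.34 to 0.47 on days 7 to 56, none of which passed. The day 3 medians were 485 CPM in CEFT, 479 in ENRO, 434 in TULA, 421 in TILD and 323 in OXYT. CEFT held the highest steer, with 774 CPM. With another scaling and with DESeq2, PHGDH in CEFT on day 3 was called against NC as well.

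The change in PHGDH from day 0 to day 3 in FLOR exceeded that of NC by 0.20 (95% interval -0.098 to 0.51, adjusted p = 0.789). The same difference was 0.31 in CEFT, 0.23 in TILD, 0.21 in ENRO, 0.0075 in TULA and -0.21 in OXYT, none past the threshold. Both FLOR steers on lane 1, the lane of NC, were above all 6 NC steers on day 3 with 567 and 697 CPM, and the 4 on lane 2 lay between 403 and 657. The B cell markers moved alongside, with summed levels of 1680 to 2280 CPM in FLOR and 1120 to 1930 in NC and a mean log2 difference of 0.44, and 1 of 6 of these markers was called. Their part in the PHGDH result was not tested. As everywhere in whole blood, a change in the number of cells of a type and a change in RNA per cell cannot be told apart. The call was lost when any 1 of the 12 steers was left out, with adjusted p between 0.1 and 0.198. With lane as a term in the fit the difference was 0.81 with an adjusted p of 0.38, and after ComBat_seq adjustment by lane it was 0.59 with an adjusted p of 0.236, so neither passed.

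The changes from day 0 compared with NC gave 0 calls in 300 member tests at an FDR of 0.05, against a background of 0.286% of all gene tests. Of these tests 15, or 5%, had an unadjusted p below 0.05, against 8.82% of all gene tests, and the smallest adjusted p was 0.104. limma voom called 0 of 300 as well, with 15 unadjusted p below 0.05. ATF4 accounted for 6 of the 15, all with a lower change than NC, on days 7 and 21 in ENRO and OXYT and on days 3 and 21 in FLOR. The lowest was -0.40 in FLOR on day 21 (95% interval -0.70 to -0.097, adjusted p = 0.481).

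The NC steers themselves had mean log2 changes of 0.045 to 0.13 in ATF4. NC1 was the highest NC steer on days 21 and 56 with 481 and 470 CPM, against at most 328 and 345 CPM in the other NC steers. Since all 6 treatments share the NC steers, their values against NC move together.

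Over all 42 steers most of the genes changed with time. Of 50 tests of a day against day 0, with steer as a block, 35 passed an FDR of 0.05, 22 higher and 13 lower, against 57.2% of all gene tests. On day 3, 3 of the 10 genes were higher and 1 was lower, against 22% and 20.2% of all genes. The counts were 4 and 2 on day 7 (25.5% and 21.3% of all genes), 5 and 3 on day 14 (33.8% and 31.2%), 5 and 3 on day 21 (33.6% and 32.8%), and 5 and 4 on day 56 (33.5% and 31.9%). The steers were sampled on common dates, and time since arrival, season and handling cannot be separated here.

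The 3 transcription factors did not move as 1 block. ATF4 was at 255 to 634 CPM with a median of 352 on day 0 and at 264 to 481 with a median of 315 on day 21. It was lower on day 21 by 0.18 (SE 0.041, adjusted p = 4.01e-05), in 32 of 42 steers. On day 56 it was lower by 0.092, in 22 of 42 steers, a call that voom did not make (adjusted p = 0.0595). On both days 6 of 7 groups had a lower mean. NC was the 1 group that rose, with mean log2 changes of 0.061 on day 21 and 0.093 on day 56. DDIT3 fell further, with a median of 27.2 CPM on day 0 and 21.6 on day 21.

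Its log2 change on day 21 was -0.33 (95% interval -0.42 to -0.25), in 37 of 42 steers and in 7 of 7 groups, and -0.23 on day 56. ATF5 went the other way. It was at 3.7 to 7.28 CPM with a median of 5.28 on day 0 and at 4.29 to 8.96 with a median of 6.59 on day 21, a log2 change of 0.32 (95% interval 0.25 to 0.40) seen in 39 of 42 steers. ATF5 was also higher on days 14 and 56, by 0.20 and 0.21.

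TRIB3 was higher on all 5 days. Its median was 38.8 CPM on day 0, with a range of 21 to 61.1, and 55.2 CPM on day 56, with a range of 24.4 to 85.4. The log2 change grew from 0.19 on day 3 to 0.42 on day 14 and 0.53 on day 56 (95% interval 0.47 to 0.59), when 42 of 42 steers were above their own day 0 value. In NC, which received no antimicrobial at arrival, the mean log2 change on day 56 was 0.55.

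SESN2 was lower on days 7, 14, 21 and 56 by 0.24 to 0.36, with SEs of 0.11. Much of the mean change came from 4 steers with high SESN2 on day 0 (Ceft10, Oxyt5, Tula7 and Flor3). As a mean over steers the log2 change on these 4 days was -0.281, -0.21, -0.147 and -0.166 in all 42. Without those 4, an alternative added after the data were seen, it was -0.0989, -0.00271, 0.0525 and 0.0383. Leaving out steers chosen as high on day 0, the baseline of the change, was bound to raise the mean. On days 21 and 56 the SD over the 38 steers kept was 0.378 and 0.413, and 19 of them were lower on each day. The summed level of interferon-stimulated genes had a median of 1550 CPM on day 0 and 1220, 1220, 1020 and 791 CPM on days 7, 14, 21 and 56. The SESN2 medians differed little, at 18.8 CPM on day 0 and 16.5, 17.7, 18.6 and 17.6 CPM on those 4 days. The change over the median steer was -0.17 on day 7 and between -0.027 and -0.073 on the later days, and 23 of 42 steers were lower on day 56. With limma voom SESN2 passed on day 7 alone, with adjusted p of 0.066, 0.19 and 0.134 on days 14, 21 and 56. CHAC1 passed on day 7 alone, with 0.44 (95% interval 0.10 to 0.77, adjusted p = 0.0264), where its mean was 0.29 CPM against 0.216 on day 0, and it did not pass with voom (adjusted p = 0.127).

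Of the enzymes, PHGDH and ASNS were higher on all 5 days. PHGDH lay between 225 and 639 CPM with a median of 373 on day 0 and between 332 and 849 with a median of 561 on day 21. Its log2 change was 0.19 on day 3, 0.55 on day 21 (95% interval 0.47 to 0.63, 42 of 42 steers) and 0.54 on day 56. ASNS had a median of 13.5 CPM on day 0 and 16.9 on day 21, with a change of 0.11 on day 3 and 0.40 on day 21 (95% interval 0.33 to 0.47, 40 of 42 steers).

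SHMT2 was higher on days 14, 21 and 56, by 0.080, 0.23 and 0.074. PSAT1, which acts between PHGDH and the last step of serine synthesis, did not follow PHGDH. It was lower on days 3, 14 and 56, by 0.098, 0.12 and 0.17, and 31 of 42 steers were below their day 0 value on day 56. Its median went from 24.9 CPM on day 0 to 23.6 on day 56.

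**Figure D3:**
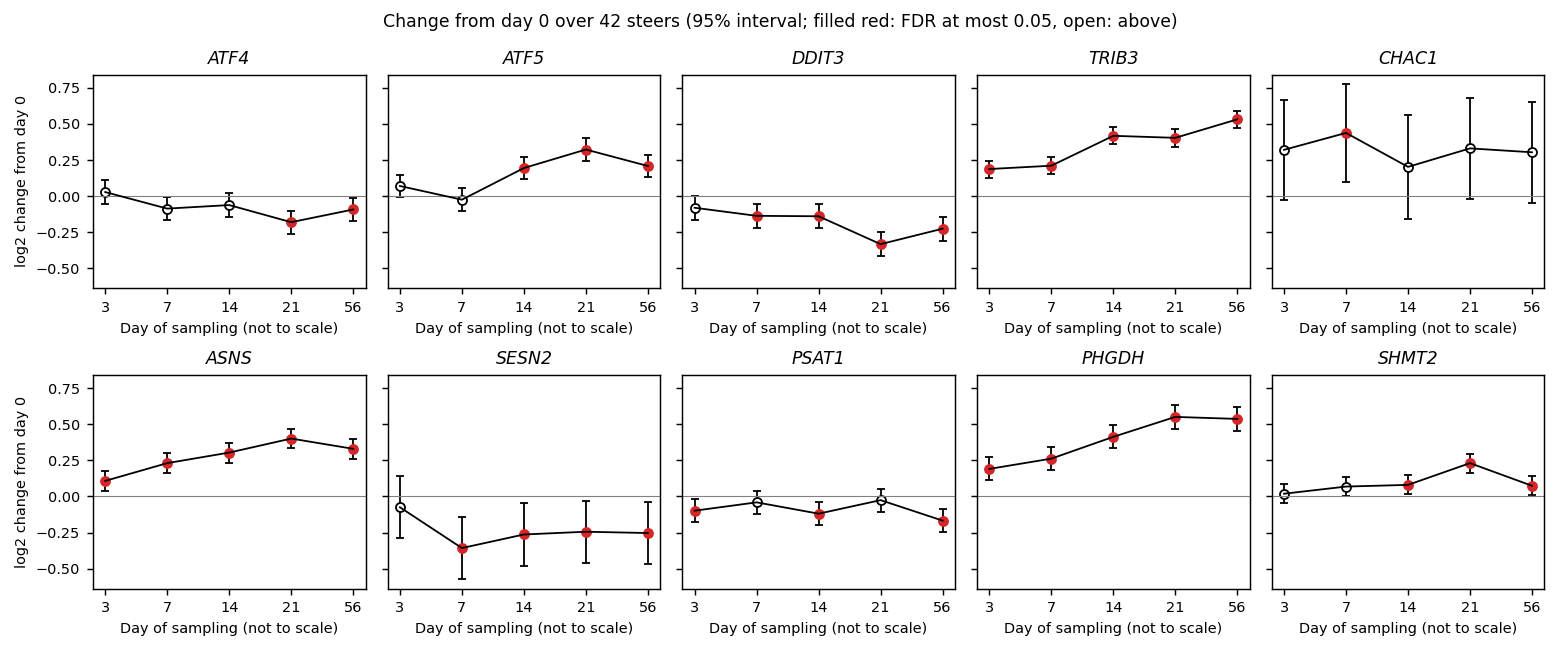
Log2 change from day 0 averaged over the 7 groups (vertical axis) by day (horizontal axis) for each gene, with 95% intervals, red points where the adjusted p was at most 0.05 and open points elsewhere. TRIB3, PHGDH and ASNS lie above 0 on all 5 days, DDIT3 falls to -0.33 on day 21, and SESN2 and CHAC1 have the widest intervals.

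Markers of blood cells moved over the same days. From day 0 to day 56 the mean log2 level of the T cell set rose by 0.456, with 7 of 7 markers called higher, and that of the B cell set by 0.389, with 5 of 6 called higher and 1 lower. The neutrophil set was lower by 0.514, with 5 of 6 called lower, and the monocyte set by 0.72, with 4 of 5 called lower. The erythroid set was 2.32 higher on day 14, where 7 of 7 markers were called, and the summed level then lay between 302 and 112000 CPM. On day 56 it was 0.572 higher, and ALAS2 alone of its markers was called. The eosinophil set was 1.38 higher on day 56, with its tested markers IL5RA, CCR3 and PRG3 all called higher. Proliferation genes were lower by 0.413 on day 56, with 4 of 5 called lower. The part of cell makeup in the changes of the 10 genes was not tested.

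The kinases that start the response were measured too. On day 56, EIF2AK2, the kinase PKR that senses viral RNA, was lower by 0.94, EIF2AK3 (PERK, endoplasmic reticulum) by 0.37 and EIF2AK4 (GCN2, amino acids) by 0.26, while EIF2AK1 (HRI, heme and mitochondrial stress) was higher by 0.19. EIF2AK2 is itself known as interferon-induced, and beside it 7 of 8 interferon-stimulated genes of the list added after the data were seen were called lower on that day and 0 higher, with RSAD2 at -2.53, MX2 at -1.82 and a mean log2 level of the list 0.96 below day 0. The part of these genes in the kinase's change was not tested. Of the subunits of eIF2 and of its exchange factor eIF2B, 4 of 8 were higher and 3 lower. EIF2B2 and EIF2B5 of eIF2B were higher by 0.26 and 0.15, and EIF2S1 and EIF2S3 of eIF2 lower by 0.22 and 0.24. The other called ones, named after their values were seen, were EIF2B4 and EIF2B3, higher, and EIF2S2, lower. Of the phosphatase subunits that reverse the switch, 4 of 5 were lower and 1 higher. The regulatory subunits PPP1R15B and PPP1R15A (GADD34) were lower by 0.47 and 0.25 and the catalytic subunit PPP1CC by 0.20, while the catalytic subunit PPP1CA was higher by 0.31.

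Of the partner factors, 5 of 7 were lower on day 56 and 0 higher, with NFE2L2 at -0.52, CEBPG at -0.24, JDP2 at -0.28 and ATF3 at -0.48. Amino acid transporters were lower in 4 of 8, with SLC38A2 at -0.67 and SLC1A5 at -0.66, and higher in 2. The tRNA synthetases were divided, with 4 of 13 higher, VARS at 0.19 among them, and 5 lower, TARS at -0.45 among them. Other serine and one-carbon enzymes were lower in 5 of 10, with GPT2, an alanine aminotransferase, at -0.71, PSPH, the last enzyme of serine synthesis, at -0.36 and MTHFD2 at -0.32, and higher in 1, SHMT1 at 0.68.

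Other genes listed as ATF4 targets, some of which also answer to other regulators, were lower in 5 of 9 tested and higher in 2. VLDLR was at -1.14, TXNIP at -0.61, XPOT at -0.20 and SESN1 at -0.24. GDF15, FGF21 and STC2 of this list did not pass the filter on low counts and were not tested. The mitochondrial relay and chaperones were higher in 6 of 12 and lower in 5, with TRAP1 at 0.22 and CLPP at 0.27 against HSPD1 at -0.36 and CLPX at -0.43. Genes of the unfolded protein response of the endoplasmic reticulum were lower in 7 of 11 and higher in 0, with ERN1 at -0.78, ATF6 at -0.44, DNAJB9 at -0.73 and HERPUD1 at -0.38. Beside these counts stand the background shares of day 56 given above, and the median log2 change of all genes on that day was 0.017. In none of these lists was a gene called for the ribosome-binding drugs against CEFT and ENRO on day 3, neither in level nor in change from day 0.

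Steers differed widely in ASNS, TRIB3, SHMT2, PSAT1 and PHGDH. Steers within groups held 73.9% of the sum of squares of log2 CPM of ASNS, 65% of TRIB3, 55.5% of SHMT2, 51.8% of PSAT1 and 45.5% of PHGDH, against a median of 29.7% over all genes tested. For ATF4, ATF5, DDIT3, CHAC1 and SESN2 the share was 20% to 25%. Treatment by day held between 1.05% in ASNS and 10.2% in SESN2.

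ASNS set steers apart on every day. Oxyt9 had a mean of 62.9 CPM over the 6 days, with 43.3 on day 0 and 81.4 on day 56, and the next steer, Tild3, had 34.4. Below 9 steers with means from 26.8 CPM upward came a second step to 19.5 CPM, and the remaining 33 steers lay below it. These 9 steers were chosen by their means, and on each single day all 9 were above all 33, for example 19.4 to 43.3 against 9.76 to 19.1 CPM on day 0 and 32.3 to 65.9 against 13.1 to 22.4 on day 21.

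The 9 steers were 2 from NC, 1 from ENRO, 2 from OXYT, 3 from TILD and 1 from TULA, with 0 from CEFT and 0 from FLOR. So 6 of them had received a ribosome-binding drug and 1 had received ENRO, as already on day 0. TRIB3 was spread more evenly, from Tula5 with a mean of 79.5 CPM, the highest, to Tild10, which lay between 21 and 29.8 CPM on the 6 days. PSAT1 had 1 library apart, Tula8 on day 0 with 60.3 CPM, 1.99 times its own median over the 6 days.

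**Figure D4:**
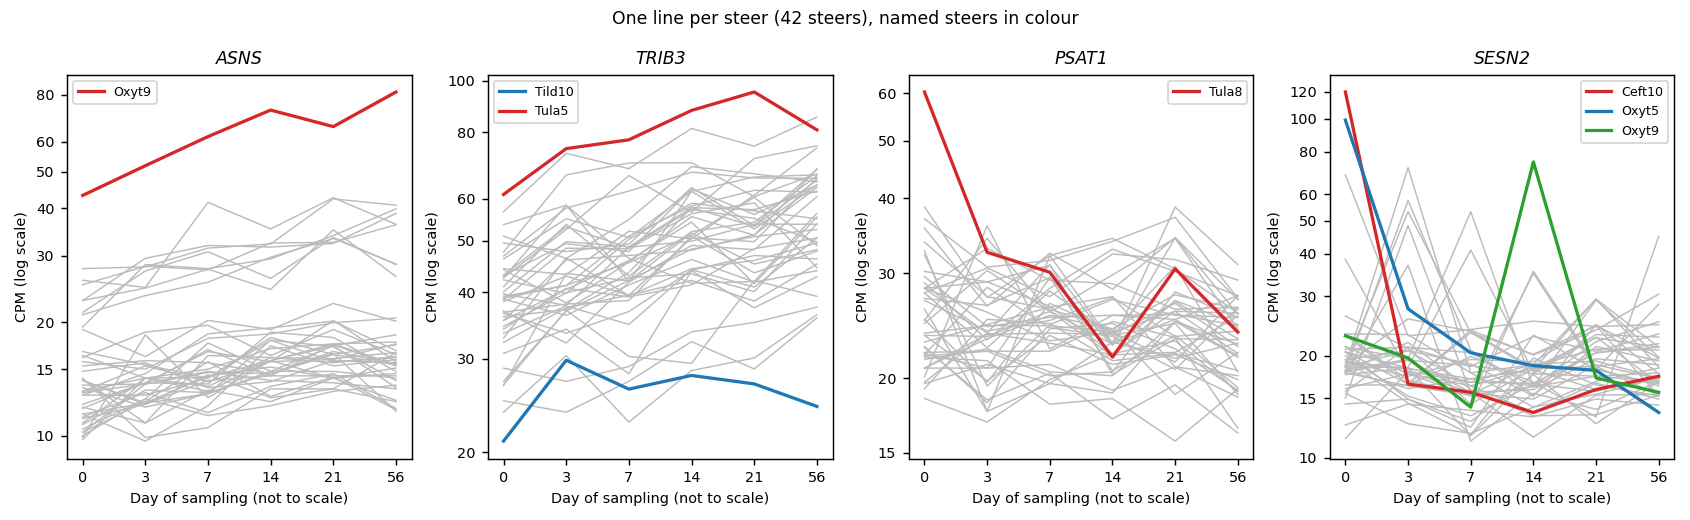
Level of ASNS, TRIB3, PSAT1 and SESN2 in CPM (vertical axis, log scale) by day (horizontal axis), with 1 line for each of 42 steers and named steers in colour. ASNS lines hold their order over the days with Oxyt9 on top, TRIB3 lines climb in parallel, and SESN2 lines lie together apart from single libraries that reach up to 120 CPM.

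SESN2 behaved otherwise, with steers alike on most days and single libraries far above. In 12 libraries, from 12 different steers, SESN2 was at least 2 times the median of the same steer. The highest were Ceft10 on day 0 with 120 CPM against an own median of 16.2, Oxyt5 on day 0 with 99.1 against 19.5, Oxyt9 on day 14 with 74.6 against 18.4 and Tild7 on day 3 with 71.8 against 20. Of the 12 libraries 4 were from day 0, before administration, 5 from day 3 and 1 each from days 7, 14 and 56.

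In all 12 the summed level of 8 interferon-stimulated genes was at least 2 times the steer's own median as well, from 3.04 times in Enro9 on day 56 to 30.8 times in Ceft10 on day 0. Of the other 240 libraries 23 had such a rise. ATF4 in the 12 libraries was at 1.05 to 1.95 times its own median, DDIT3 at 0.98 to 1.71 times, and TRIB3 and ASNS at 0.594 to 1.3 times.

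Across libraries the 10 genes were weakly related. After the mean of each group and day was subtracted, the 45 pairs had a median Pearson r of 0.0716 over the libraries of all 42 steers and 6 days, which share steers and library preparation, and 16 pairs were below 0. ATF4 went with DDIT3 (r = 0.611) and SESN2 (r = 0.453), and ATF5 with SHMT2 (r = 0.301). ATF4 and ASNS, a textbook target of it, had r = -0.0674, and ATF4 and TRIB3 had r = -0.0435. Within steers, with the mean of each steer subtracted as well, PHGDH had r = 0.531 with TRIB3 and 0.454 with SHMT2, and ASNS had 0.524 with SHMT2. Without that step these 3 pairs had r = -0.137, 0.051 and 0.159.

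The genes most like each member by the same measure lay mostly outside the pathway. SESN2 was closest to PML (r = 0.871), MOV10 (0.871) and CMTR1 (0.85), of which PML and MOV10 are known as interferon-induced. PSAT1 was closest to HJURP (0.721), RRM2 (0.697) and MCM6 (0.694), which serve cell division and DNA synthesis. SHMT2 was closest to LOC100141266 (0.742), TUBA1C (0.635) and ZNF511 (0.592), and PHGDH to VPS18 (0.693), SLC19A1 (0.662), a folate carrier, and SCAMP4 (0.64).

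ATF4 was closest to RBKS (0.7), NDEL1 (0.691) and GADD45B (0.664), a stress-induced gene, and DDIT3 to FAM32A (0.629), ATF4 itself (0.611) and NGDN (0.582). TRIB3 was closest to TSPAN15 (0.628), DOK7 (0.626) and LOC112449236 (0.622), and ATF5 to ACTR1A (0.577), FKBP4 (0.562) and RNF126 (0.56). For ASNS, with HACL1 (0.443), BTD (0.433) and PCBD1 (0.424), and CHAC1, with CLDN3 (0.369), LOC101907299 (0.324) and PYCR1 (0.316), the closest genes had the lowest r of the 10.

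Against the marker sets, the highest r of the enzymes and effectors differed in size and in set. PSAT1 had r = 0.701 with the proliferation set, SHMT2 0.407 with the same set, PHGDH 0.588 with the B cell set, TRIB3 0.459 with the T cell set and SESN2 0.686 with the interferon-stimulated genes. ATF4 had 0.368 with the interferon-stimulated genes and 0.338 with the neutrophil set. For ASNS no set exceeded an r of 0.202. Within steers its highest values were 0.276 with the plasma cell set and 0.271 with the T cell and proliferation sets. On day 3, PSAT1 in FLOR lay between 17.6 and 25.1 CPM beside proliferation markers at 89.6 to 198 CPM, against 21.4 to 33 CPM beside 215 to 386 CPM in NC, and the PSAT1 difference of -0.33 did not pass (adjusted p = 0.207).

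**Figure D5:**
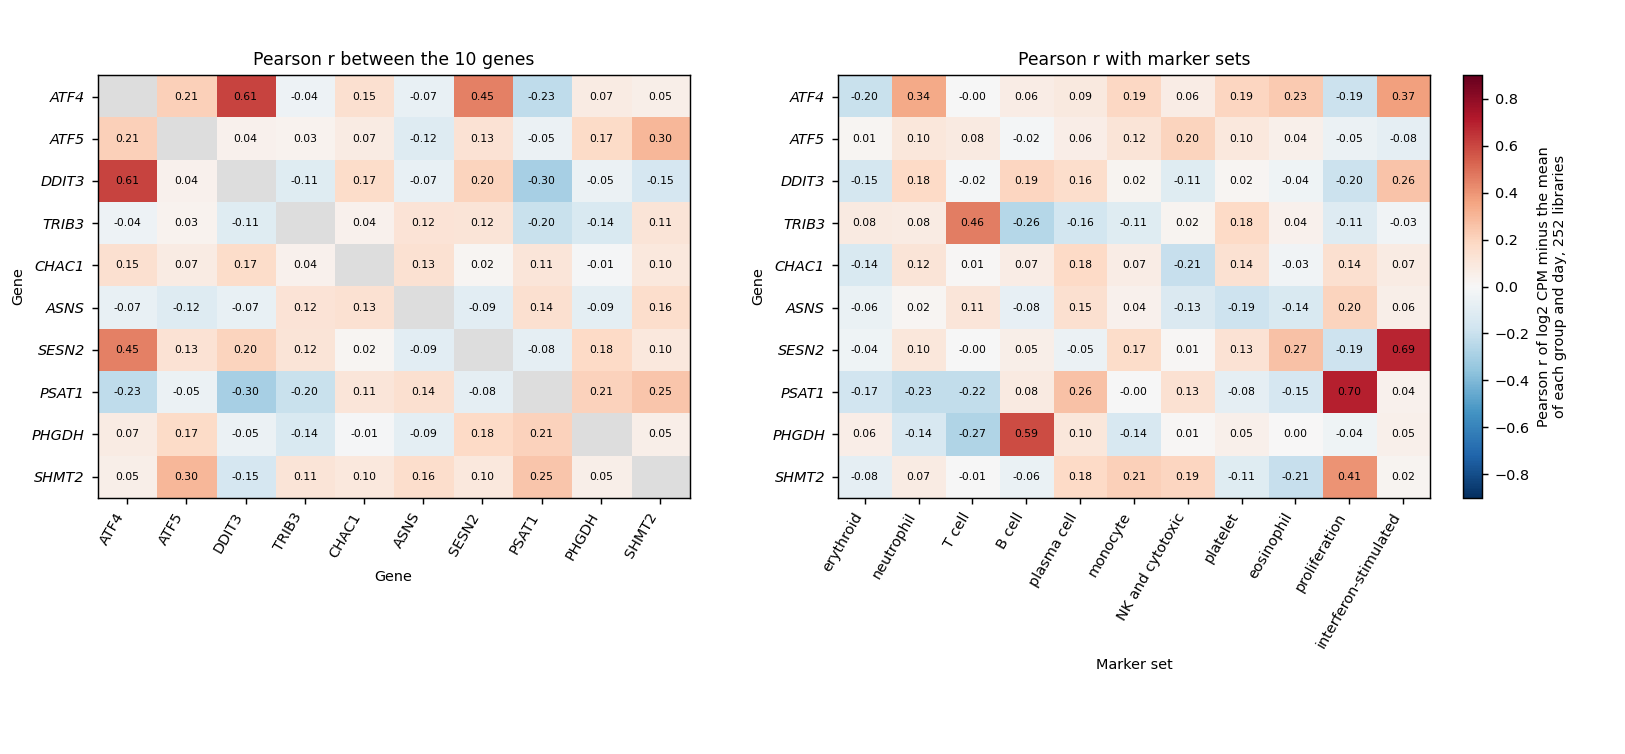
Pearson r of log2 CPM over all libraries (42 steers on 6 days) after subtraction of the mean of each group and day, between the 10 genes at left and with the mean of each marker set at right, coloured from blue (negative) to red (positive). Apart from ATF4 with DDIT3 (0.61) and with SESN2 (0.45) the left panel is pale, while at right SESN2, PSAT1, PHGDH and TRIB3 each have 1 dark field in a different column.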

How the data were processed

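Whole blood in PAXgene tubes was sequenced as stranded mRNA libraries. Per the labels and the study's methods, reads were trimmed with Trimmomatic 0.39, checked with FastQC 0.11.9, aligned to ARS-UCD1.3 with HISAT2 and assembled with StringTie 2.2.0. The authors deposited estimated read counts per gene derived from coverage for a read length of 150, as whole numbers that were not adjusted for lane.

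Libraries were grouped by the labels. Genes with CPM above 0.2 in at least 12 libraries were kept and scaled by TMM. The main test was edgeR 4.0.16 quasi-likelihood (glmQLFTest) with Benjamini-Hochberg adjustment over all 19056 genes. Treatments were tested on each day at an FDR of 0.1. Changes from day 0 were tested over all libraries with steer as a block at an FDR of 0.05. The same steer was sampled on all 6 days, and libraries of a steer had a median r of 0.333 against -0.0804 for other steers of the group. The tests were tried on simulated data first, where the single-day tests gave a larger share of false calls than the nominal FDR of 0.1 and, with 6 steers a group, found a minority of the changes put in.

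Alternatives were edgeR's likelihood ratio test, DESeq2 1.42.0, limma 3.58.1 voom, ComBat_seq (sva 3.50.0), lane as a term, other scaling and filters, and groups or steers left out. The 10 genes and all lists were chosen with earlier results of these data known. The interferon-stimulated genes and the SESN2 values without 4 steers were added after the data were seen. Of each other list, up to 4 called genes with the smallest p on day 56 are named (EIF2B3, EIF2B4 and EIF2S2 were named after their values were seen), and the 3 genes with the highest r are named for each of the 10. Promoter and protein sequences were not used here.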

Additional observations from a re-analysis of the deposited data

Results flagged for a closer look

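In each of the 420 sets of 6 steers of a group on a day, the steer farthest from the others was compared with the spread of the set by Dixon's ratio at its 95% critical value. The test picked out 52 sets, or 12.4%, where chance alone would pick out about 1 in 20. The difference of effects between groups was tested by the comparisons of changes from day 0, and no member passed there.

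SESN2 had the steers farthest from their group. Ceft10 on day 0 had 120 CPM against 17.8 to 18.8 CPM in the other CEFT steers, Oxyt5 on day 0 had 99.1 and Tula7 on day 0 had 68.4. On day 3, Tild7 had 71.8, Oxyt6 48.4 and Enro2 37 CPM, and Oxyt9 had 74.6 on day 14. NC7 was low on day 14 with 13.2 and Tild5 on day 7 with 11.6 CPM.

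ASNS gave the same steers on several days. Enro9 had 25.5, 29.7, 33.3 and 28.5 CPM on days 7, 14, 21 and 56, where the other ENRO steers reached at most 18.5, and Tula6 had 27.7, 28, 42.4 and 40.8 CPM on days 0, 3, 21 and 56, where the other TULA steers reached at most 20.1. Ceft4 had 19.6 CPM on day 7. In SHMT2, Ceft3 stood above the other CEFT steers with 89.7, 128 and 142 CPM on days 0, 14 and 21, and Enro5 had 86.1 CPM on day 7.

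Of the factors, ATF4 was high in NC1 on days 21 and 56 with 481 and 470 CPM, in Ceft10, Flor3 and Tild5 on day 0 with 418, 634 and 483 CPM, and in Flor8 on day 7 with 540 CPM. ATF5 was high in Ceft4 on day 21 (8.6 CPM), Enro10 on day 0 (7.28) and Tild2 on day 7 (7.33), and low in Ceft10 on day 14 (5.36), Tula3 on day 7 (3.65) and Tula5 on day 14 (3.97). DDIT3 was high in Ceft4 on day 3 with 37.8 CPM, Oxyt5 on day 56 with 30.1 and Tula3 on day 14 with 30.1, and low in Ceft6 on day 0 with 23.4 and Flor3 on day 3 with 20.

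Of the remaining genes, PSAT1 was high in Tula8 on day 0 with 60.3 CPM and low in NC5 on day 7 with 18.1, PHGDH was low in NC5 on day 3 with 226 CPM, and TRIB3 was low in NC15 on day 7 with 39.5 CPM. CHAC1, with a median of 11 counts, was high in Flor6 on day 0 (0.52 CPM) and Oxyt4 on day 14 (0.382), and low in Ceft8 and Flor4 on day 7 (0.0783 and 0.104) and Oxyt2 on day 21 (0.0587). It had no count, that is 0 CPM, in NC1 on day 7, Enro10 on day 3, Oxyt6 on day 0 and Tild2 on day 21.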

How the results depend on the processing

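The 10 genes gave 2 calls against NC on single days in the quasi-likelihood test, 12 with DESeq2, 1 without a filter on low counts, 0 with lane as a term, and 0 after ComBat_seq by lane with either edgeR test. Over all genes these counts went from 4758 to 20215 with DESeq2, 1435 without the filter, 758 with lane as a term, and 704 and 1358 after ComBat_seq with the quasi-likelihood and the likelihood ratio test. Leaving out 1 steer at a time gave 132 to 3836 called genes for CEFT on day 3, against 2071, and 129 to 497 for FLOR, against 508.

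For the ribosome-binding drugs against CEFT and ENRO, the 10 genes gave 0 calls in each alternative other than without CEFT and without ENRO, with 1 call each, ATF5. Over all genes the count of 89 became 142 with DESeq2, 20 after ComBat_seq, 7 with lane as a term, 59 without NC libraries, 3783 without CEFT, 2098 without ENRO, 56 without FLOR, 30 without OXYT and 38 without TULA.

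In changes from day 0 against NC, the 1637 genes called became 972 without the filter and 178 without steer as a replicate block. For the drug classes, 5 became 2 without the filter, 3 without the replicate block, 2 with voom, 2154 without CEFT, 69 without ENRO, 1 without FLOR, 2 without OXYT and 2 without TULA, and the 10 genes gave 0 calls throughout. Of the 35 calls over time, 27 passed without the replicate block and 30 with voom, and leaving out 1 group at a time gave 28 to 37 calls. Between the fits of different tools, scalings, filters and lane terms no called value changed sign. ATF5 in the drug classes on day 3 was called at -0.34 without ENRO and had an estimate of 0.24 without CEFT. SESN2 was called lower on days 21 and 56 in all steers. Without 4 steers chosen for high SESN2 on day 0, its mean change on these days was 0.0525 and 0.0383. That choice was bound to raise the mean, as day 0 is the baseline of the change. The cause of these differences was not tested. CHAC1, at a median of 11 counts, is limited by depth.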
